A study of Homo sapiens with 12 samples.

Results

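The genes described are 10 that encode proteins of plasma lipoproteins or of their assembly: APOA1, APOA2, APOA4, APOA5, APOB, APOC3, APOE, APOH, APOM and MTTP. They were chosen by name, and each was read from its brightest probe set over the 12 arrays among probe sets with exactly 1 gene symbol. All 10 had such a probe set, out of 18404 genes measured in this way. The cells were HepG2, a human hepatocellular carcinoma line, grown as tumour spheroids for 10 days in stirred flasks. Of the 12 Affymetrix arrays, 4 were of HIF-2α knockdown cells, 4 of HIF-1α knockdown cells and 4 of wild type cells, and the design text gives 4 different spheroid experiments for each. HIF1A encodes HIF-1α and EPAS1 encodes HIF-2α, transcription factor subunits that build up when oxygen is low. The short labels of the knockdown samples carry the letters "sh", but the sources used here do not give the knockdown method, the number of clones or any control construct in the wild type cells. RNA was amplified by a kit protocol for 250 microdissected cells, and which part of the spheroid it came from is not given.

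Lipoproteins are particles of lipid and protein that carry triglyceride and cholesterol through the blood, and the liver is a main site of their synthesis. In the endoplasmic reticulum of a hepatocyte, microsomal triglyceride transfer protein (MTTP), bound to protein disulfide isomerase, loads lipid onto apolipoprotein B, and the particle leaves the cell as very low density lipoprotein. The A apolipoproteins and apolipoprotein M sit mainly on high density lipoprotein, while the exchangeable apolipoproteins C-III, E and A-V set how fast triglyceride-rich particles are hydrolysed and taken up. HepG2 cells are widely used to study this secretion.

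Values are the deposited log2 values, so a difference of 1 is a doubling of signal, and every value below is on that scale. A level can be compared between groups for 1 gene but not between genes, because probe sets differ in brightness. HIF1A averaged 9.46 ± 0.18 in HIF-1α knockdown and 10.70 ± 0.08 in wild type (SD, n = 4 each; limma adjusted p = 0.00241). EPAS1 averaged 9.89 ± 0.15 in HIF-2α knockdown and 11.01 ± 0.18 in wild type (limma adjusted p = 0.000206), so each targeted transcript was lower under its own label. Without the 3 arrays with a raised floor, described next, the HIF1A difference was -1.24 with a limma adjusted p of 0.103.

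Array-wide differences bear on the brightest members. On 3 arrays, HIF-2α knockdown replicate 4 and wild type replicates 1 and 2, the floor of the values was raised: their 0.1 percentile was 6.33 to 6.35, and that of the other arrays 6.11 to 6.23. HIF-2α knockdown replicate 2 had the lowest median, 7.29, against 7.34 to 7.41 elsewhere. The top of the scale differed too: the 200 brightest genes averaged 12.50 to 13.01 in HIF-2α knockdown, 12.43 to 12.73 in HIF-1α knockdown and 12.67 to 13.06 in wild type, array by array. For this reason the main differences of the members, and any change of a call among the other lipoprotein genes, are also given after quantile normalization of the table, which puts all arrays on 1 distribution. A normalized value is set by its rank on the array, so genes that stay near the top have less room to differ. Over the 12 arrays APOA2 ranked 3 to 17 among genes, APOB 4 to 15 and APOH 20 to 44. All 7 hepatocyte markers, such as ALB and TTR, lay above the median gene level of 7.69, as did 1 of 7 enterocyte, 2 of 7 macrophage, 1 of 5 endothelial and 0 of 5 fibroblast markers. The exceptions were VIL1 among the enterocyte genes, CD68 and LYZ among the macrophage genes and PECAM1 among the endothelial genes, and the markers FABP2, PTPRC, VWF and DCN averaged between 6.52 and 6.85. These are bulk samples, in which fewer cells of a type and less RNA per cell cannot be told apart.

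None of the 10 members passed the limma test at a Benjamini-Hochberg adjusted p below 0.05 over all genes in any of the 3 comparisons. In HIF-1α knockdown against wild type 0 of 10 were called, beside 0.962% of all genes, and at an unadjusted p below 0.05 APOE was higher, 1 of 10 beside 10.3% of all genes, and APOA2, APOB and APOH were lower, 3 of 10 beside 2.98%. In HIF-2α knockdown against wild type 0 of 10 were called, beside 0.788% of all genes, and at an unadjusted p below 0.05 MTTP was higher, 1 of 10 beside 8.16%, and 0 of 10 were lower, beside 3.85%. In HIF-2α against HIF-1α knockdown 0 of 10 were called, beside 2.77% of all genes, and at an unadjusted p below 0.05 APOH was higher, 1 of 10 beside 5.19%, and APOE was lower, 1 of 10 beside 8.39%. The arrays of the groups did not overlap for APOB and APOH in HIF-1α knockdown against wild type, a state shared by 7.84% of all genes. In the deposited values no member's groups were apart in HIF-2α knockdown against wild type, where 5.31% of genes were, or in HIF-2α against HIF-1α knockdown, where 9.08% were. After quantile normalization APOB and APOH overlapped in HIF-1α knockdown against wild type. APOH was then apart in both comparisons with HIF-2α knockdown, and APOA2 in HIF-2α against HIF-1α knockdown. The share of all genes apart was not computed after this step, so these separations have no background and are not read as a result. In HIF-2α knockdown against wild type the SE of APOH also went from 0.17 to 0.04 with this step. Fitted on the 8 arrays of the HIF-1α knockdown and wild type groups alone, limma called APOB, 1 of 10, beside 2.15% of all genes, and fits on the 2 groups of the other comparisons called 0, beside 0.348% and 2.86%. After quantile normalization limma called 0 of 10 members in HIF-1α knockdown against wild type, beside 1.38% of all genes, and APOA1 alone had an unadjusted p below 0.05, beside 14.9%. In HIF-2α knockdown against wild type it then called 0 of 10, beside 2.20%, and 3 had an unadjusted p below 0.05 (APOH, APOM and MTTP), beside 16.7%. In HIF-2α against HIF-1α knockdown it called 0 of 10, beside 4.83%, and 3 had an unadjusted p below 0.05 (APOE, APOH and MTTP), beside 17.1%. The first 2 comparisons use the same wild type arrays, so their values are set side by side and not combined.

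**Figure D1:**
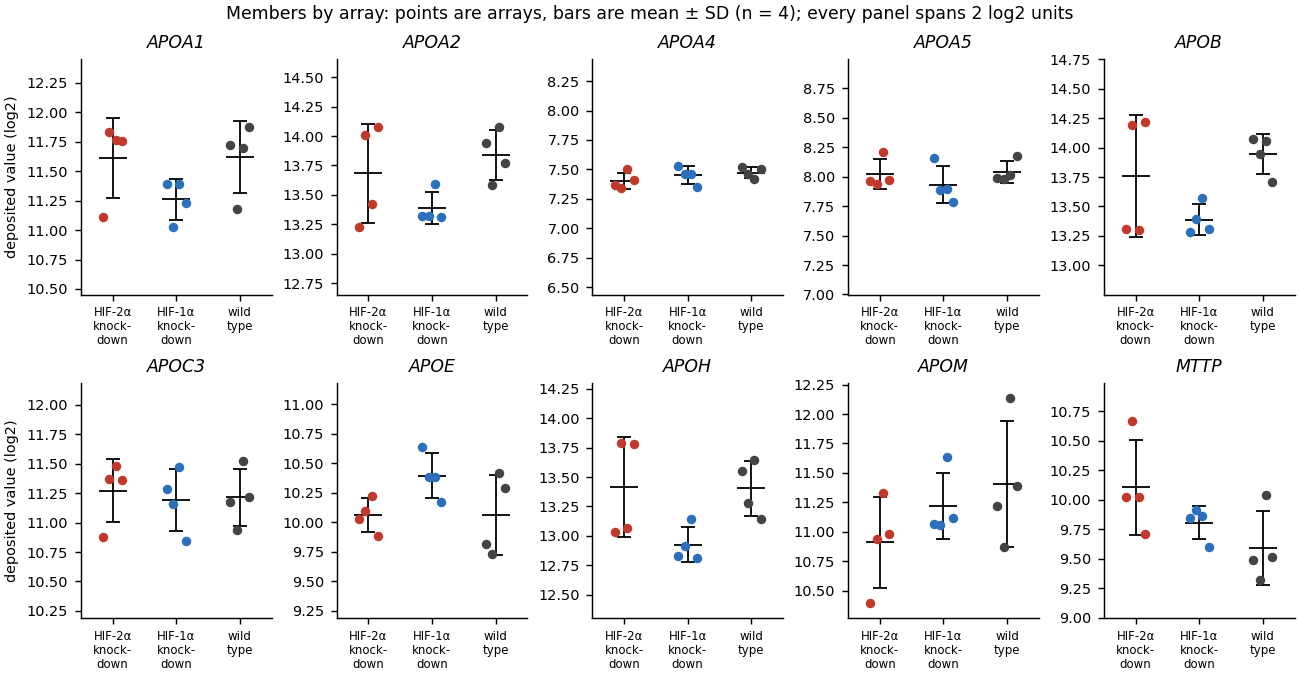
Deposited log2 value of each of the 10 genes on each of the 12 arrays, with HIF-2α knockdown at the left of each panel, HIF-1α knockdown in the middle and wild type at the right; points are arrays and bars are the mean ± SD (n = 4). APOB and APOH show all 4 HIF-1α knockdown arrays below all 4 wild type arrays, while the HIF-2α knockdown arrays of both genes split into 2 high and 2 low.

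APOB, the structural protein that stays with each very low and low density lipoprotein particle, had the largest difference of the 10 from wild type in HIF-1α knockdown in the deposited values, but not after quantile normalization, where APOA1 (-0.33) and APOE (0.26) differed more. It read 13.31, 14.19, 13.30 and 14.22 on HIF-2α knockdown arrays 1 to 4, 13.28, 13.39, 13.57 and 13.31 on HIF-1α knockdown arrays 1 to 4, and 14.08, 13.94, 14.05 and 13.70 on wild type arrays 1 to 4. All HIF-1α knockdown arrays lay below all wild type arrays, and the HIF-2α knockdown arrays split, with replicates 2 and 4 above every wild type array and replicates 1 and 3 below every one. The HIF-1α knockdown difference from wild type was -0.56 (SE 0.19, limma adjusted p = 0.194), a signal 1.47-fold lower with a 95% interval of 1.10 to 1.96. In the fit of these 8 arrays alone the adjusted p was 0.0163, and over the 16 other settings it ran from that value to 0.652. After quantile normalization the difference was 0.06 (SE 0.05), with the opposite sign. HIF-2α knockdown differed from wild type by -0.19 (SE 0.19, adjusted p = 0.775) and from HIF-1α knockdown by 0.37 (SE 0.19, adjusted p = 0.458), and the second difference was -0.09 after quantile normalization.

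MTTP, the lipid transfer subunit that loads apolipoprotein B, had the largest difference of the 10 from wild type in HIF-2α knockdown in the deposited values, 0.52 against -0.49 for APOM, while after quantile normalization APOM differed more (-0.53 against 0.44). It read 10.03, 10.67, 10.02 and 9.71 on HIF-2α knockdown arrays 1 to 4, 9.85, 9.92, 9.86 and 9.60 on HIF-1α knockdown arrays 1 to 4, and 9.49, 9.32, 10.04 and 9.52 on wild type arrays 1 to 4. All 4 HIF-2α knockdown arrays lay above wild type replicates 1, 2 and 4, and wild type replicate 3 lay above 3 of them, so the groups overlapped. The HIF-2α knockdown difference from wild type was 0.52 (SE 0.18, 95% interval 0.13 to 0.91, limma adjusted p = 0.241), a signal 1.43-fold higher that did not pass. After quantile normalization it had an SE of 0.14 and an adjusted p of 0.138, without HIF-2α knockdown replicate 2 it was 0.33, and without wild type replicate 3 it was 0.67, with adjusted p between 0.0814 and 0.546 over the 16 other settings. HIF-1α knockdown differed from wild type by 0.22 (SE 0.18, adjusted p = 0.696), and by 0.13 after quantile normalization, so the 3 group means ran in the order HIF-2α knockdown, HIF-1α knockdown, wild type, with no difference between neighbours passing the test. P4HB encodes protein disulfide isomerase, the other subunit of the MTTP complex. It averaged 13.11 ± 0.33 in HIF-2α knockdown, 12.90 ± 0.13 in HIF-1α knockdown and 13.39 ± 0.16 in wild type, and its HIF-1α knockdown difference of -0.49 (limma adjusted p = 0.113) was -0.02 after quantile normalization.

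Among the proteins of high density lipoprotein, APOA2 behaved in these values much as APOB did. It read 13.23, 14.01, 13.42 and 14.07 on HIF-2α knockdown arrays 1 to 4, 13.32, 13.32, 13.59 and 13.32 on HIF-1α knockdown arrays 1 to 4, and 13.94, 13.58, 14.07 and 13.77 on wild type arrays 1 to 4. HIF-1α knockdown replicate 3 lay just above wild type replicate 2, and the other HIF-1α knockdown arrays lay below all wild type arrays. The HIF-1α knockdown difference from wild type was -0.45 (SE 0.17, limma adjusted p = 0.241), and 0.14 after quantile normalization (SE 0.06, adjusted p = 0.349). HIF-2α knockdown differed from HIF-1α knockdown by 0.30 (SE 0.17, adjusted p = 0.520), and by -0.14 after quantile normalization.

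APOA1 encodes the main structural protein of high density lipoprotein. It read 11.11, 11.83, 11.77 and 11.76 on HIF-2α knockdown arrays 1 to 4, 11.39, 11.02, 11.39 and 11.23 on HIF-1α knockdown arrays 1 to 4, and 11.72, 11.18, 11.70 and 11.88 on wild type arrays 1 to 4. HIF-2α knockdown replicate 1 and wild type replicate 2 lay within the HIF-1α knockdown range, and the other arrays of these groups lay above it. HIF-1α knockdown differed from wild type by -0.36 (SE 0.17, limma adjusted p = 0.385), and this value stayed at -0.33 after quantile normalization. A dimmer second probe set for APOA1, with a mean of 7.02, gave 0.12 for the same comparison, and the probe sets correlated at r = -0.24 over the 12 arrays.

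APOM encodes the carrier of a signalling sphingolipid on high density lipoprotein and had the widest range of the 10 over the arrays, 1.74. It read 10.40, 10.94, 11.33 and 10.98 on HIF-2α knockdown arrays 1 to 4, 11.06, 11.05, 11.63 and 11.12 on HIF-1α knockdown arrays 1 to 4, and 11.22, 10.87, 12.13 and 11.39 on wild type arrays 1 to 4. Replicate 3 was the highest array in each of the 3 groups. The HIF-2α knockdown difference from wild type was -0.49 (SE 0.24, limma adjusted p = 0.443) and -0.53 after quantile normalization. It was -0.25 without wild type replicate 3 and -0.87 without the 3 arrays with a raised floor, and in none of the settings tried did it pass.

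APOE, the ligand by which remnant particles are taken up through receptors of the low density lipoprotein receptor family, had its highest mean in HIF-1α knockdown. It read 10.03, 10.09, 10.23 and 9.88 on HIF-2α knockdown arrays 1 to 4, 10.64, 10.38, 10.39 and 10.17 on HIF-1α knockdown arrays 1 to 4, and 9.81, 9.73, 10.41 and 10.29 on wild type arrays 1 to 4. Wild type replicates 1 and 2, both with a raised floor, were the lowest arrays of the 12, and wild type replicates 3 and 4 lay within the HIF-1α knockdown range. The HIF-1α knockdown difference from wild type was 0.33 (SE 0.14, limma adjusted p = 0.331), 0.26 after quantile normalization and 0.04 without the 3 arrays with a raised floor. HIF-2α knockdown differed from HIF-1α knockdown by -0.34 (SE 0.14, adjusted p = 0.315), by -0.33 after quantile normalization and by -0.28 without the 3 arrays with a raised floor. APOC1, which lies next to APOE on chromosome 19 and encodes another exchangeable apolipoprotein, had differences of 0.33 in HIF-1α knockdown against wild type (limma adjusted p = 0.393) and -0.35 in HIF-2α against HIF-1α knockdown (adjusted p = 0.340), which were 0.28 and -0.37 after quantile normalization. The genes correlated at r = 0.67 over the 12 arrays, which share their array-wide level, and at 0.60 after quantile normalization.

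APOC3, APOA5 and APOA4 share a cluster on chromosome 11 with APOA1 and had small differences in all 3 comparisons. APOC3, an inhibitor of triglyceride hydrolysis and remnant uptake, averaged 11.27 ± 0.27 in HIF-2α knockdown, 11.19 ± 0.26 in HIF-1α knockdown and 11.21 ± 0.24 in wild type. APOA5, a liver protein that promotes triglyceride clearance, averaged 8.02 ± 0.13 in HIF-2α knockdown, 7.93 ± 0.16 in HIF-1α knockdown and 8.04 ± 0.09 in wild type. APOA4, in humans made mainly by the intestine, averaged 7.40 ± 0.07 in HIF-2α knockdown, 7.45 ± 0.07 in HIF-1α knockdown and 7.47 ± 0.05 in wild type. On the brightest probe sets none of their 9 differences exceeded 0.11 in size, and their limma adjusted p lay between 0.675 and 0.973. After quantile normalization the largest of the 9 was -0.16, for APOA5 in HIF-1α knockdown against wild type (adjusted p = 0.352). The 95% intervals still allow sizes of up to 0.41 for APOC3, 0.29 for APOA5 and 0.19 for APOA4. APOA4 and APOA5 lie near the median gene level of 7.69, where a low signal cannot be told from none because the table has no detection calls.

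APOH, a phospholipid-binding plasma glycoprotein that is carried in part on lipoproteins, followed the pattern of APOB and APOA2. It read 13.03, 13.79, 13.07 and 13.78 on HIF-2α knockdown arrays 1 to 4, 12.83, 12.92, 13.14 and 12.81 on HIF-1α knockdown arrays 1 to 4, and 13.55, 13.28, 13.64 and 13.14 on wild type arrays 1 to 4. All HIF-1α knockdown arrays lay below all wild type arrays, by little for HIF-1α knockdown replicate 3 against wild type replicate 4. The HIF-1α knockdown difference from wild type was -0.48 (SE 0.17, limma adjusted p = 0.227), a signal 1.39-fold lower with a 95% interval of 1.07 to 1.81, and it was -0.0008 after quantile normalization (SE 0.04). HIF-2α knockdown differed from HIF-1α knockdown by 0.49 (SE 0.17, adjusted p = 0.199), and over the 16 other settings the adjusted p ran from 0.0709 to 0.556. After quantile normalization HIF-2α knockdown had differences of 0.14 from HIF-1α knockdown (SE 0.04, adjusted p = 0.0941) and 0.14 from wild type (SE 0.04, adjusted p = 0.128).

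**Figure D2:**
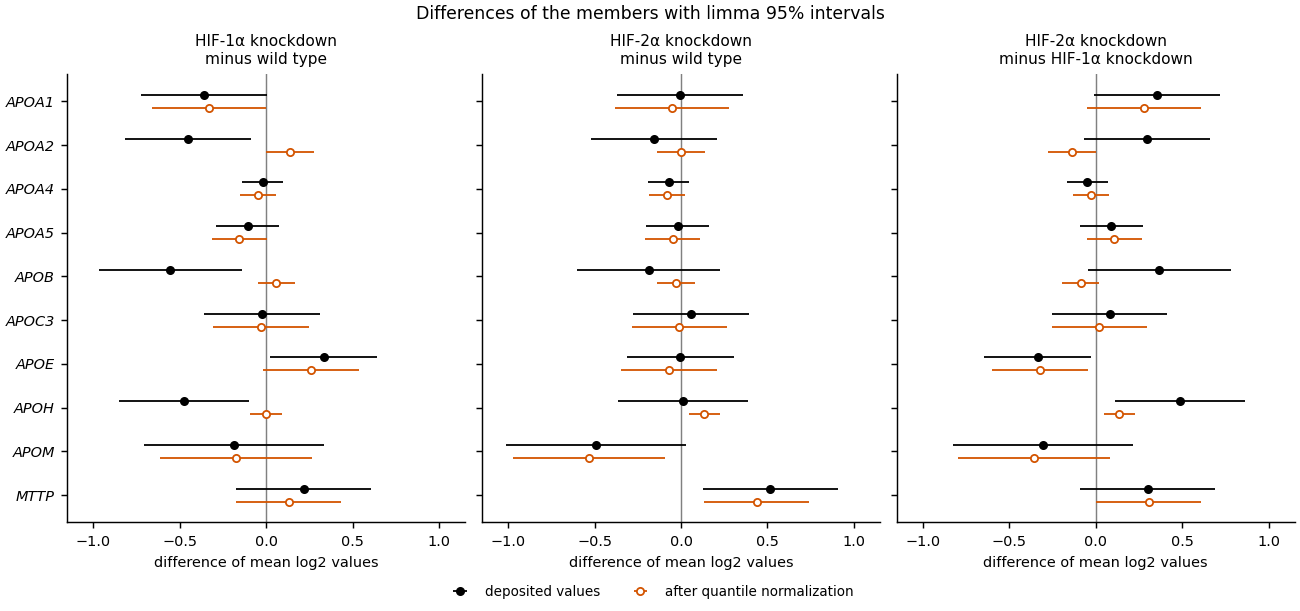
Difference of mean log2 values for the 10 genes in the 3 comparisons, with limma 95% intervals; black filled points are the deposited values and orange open points the same after quantile normalization. The APOA2, APOB and APOH differences in HIF-1α knockdown against wild type lie between -0.56 and -0.45 in the deposited values and between -0.0008 and 0.14 after quantile normalization, while MTTP in HIF-2α knockdown against wild type lies at 0.52 and 0.44.

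APOA2, APOB and APOH were the only members among the 200 brightest genes, and they moved with that group of genes from array to array. The Pearson correlation with the mean of the 197 brightest genes that are not members was 0.95 for APOA2, 0.92 for APOB and 0.95 for APOH over the 12 arrays. Between these 3 genes r was 0.94 to 0.95, against 0.76 or less for any other pair of members, as a description of points that share their arrays. With quantile-normalized values r was 0.35 for APOA2 with APOB, -0.30 for APOA2 with APOH and -0.04 for APOB with APOH. The quantile-normalized values of the members, set against the same mean of deposited values, gave -0.26 for APOA2, 0.08 for APOB and 0.46 for APOH. The correlation with a normalized mean of the brightest genes is not given. The 200 brightest genes had a median difference of -0.27 in HIF-1α knockdown against wild type, with 181 of 200 below 0, and of 0.05 after quantile normalization. In HIF-2α against HIF-1α knockdown their median was 0.20, and -0.07 after quantile normalization. Quantile normalization gives all arrays the same set of values, so it removes a shift shared by the brightest genes whatever its source. The small medians and lower correlations after it follow largely from the step itself. Whether the lower bright range on the HIF-1α knockdown arrays came from the cells or from the measurement was not tested.

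**Figure D3:**
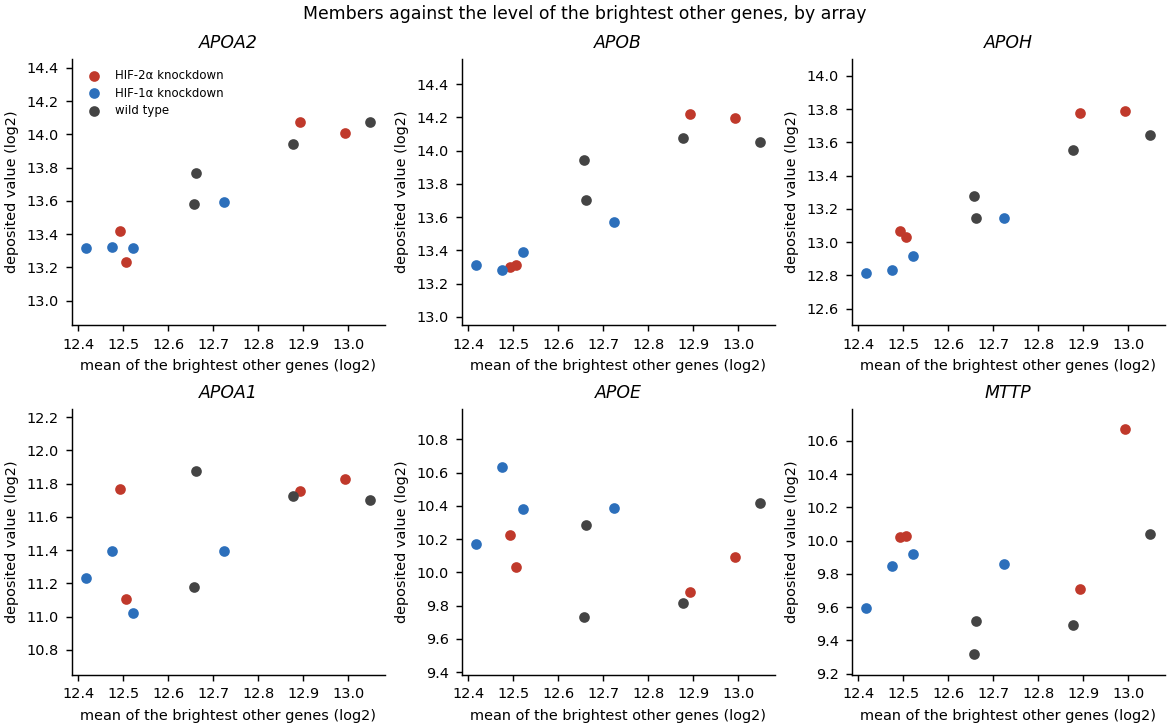
Deposited log2 value of 6 of the genes against the mean log2 value of the 197 brightest genes that are not members; each point is 1 of 12 arrays, coloured red for HIF-2α knockdown, blue for HIF-1α knockdown and grey for wild type. APOA2, APOB and APOH lie along a line (r between 0.92 and 0.95), and APOE and MTTP do not (r of -0.25 and 0.28).

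The mean of the 10 members was 11.02 ± 0.21 in HIF-2α knockdown (arrays 10.73 to 11.22), 10.90 ± 0.12 in HIF-1α knockdown (10.75 to 11.04) and 11.06 ± 0.19 in wild type (10.83 to 11.30). The 3 ranges overlapped. The median difference of the members was -0.15 in HIF-1α knockdown against wild type, with 8 of 10 below 0, beside 0.0049 over all genes. It was -0.01 in HIF-2α knockdown against wild type and 0.19 in HIF-2α against HIF-1α knockdown, beside -0.01 over all genes in both comparisons. After quantile normalization the 3 medians of the members were -0.02, -0.04 and -0.0041. Ribosomal protein genes, another group of bright genes, had a median difference of -0.45 in HIF-1α knockdown against wild type (1 of 36 fell, RPL11), and -0.17 after quantile normalization. Array means of the 7 hepatocyte markers were 12.02 to 12.57 in HIF-2α knockdown, 11.60 to 11.90 in HIF-1α knockdown and 12.18 to 12.68 in wild type. After quantile normalization they were 12.15 to 12.35, 11.83 to 11.92 and 12.21 to 12.37. FGB is 1 of these 7 and had the largest difference of them in HIF-1α knockdown against wild type, -1.75.

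Of 24 other proteins that hepatocytes secrete, the 3 fibrinogen chains FGA, FGB and FGG fell in HIF-1α knockdown against wild type, FGB and FGG rose in HIF-2α knockdown against wild type, and FGA, FGB, FGG and HPX were higher in HIF-2α than in HIF-1α knockdown. FGB averaged 10.36 ± 0.24 in HIF-2α knockdown, 7.97 ± 0.16 in HIF-1α knockdown and 9.72 ± 0.11 in wild type, and its difference in HIF-1α knockdown was -1.75 in the deposited values and -1.82 after quantile normalization. The FGA and FGB calls in HIF-1α knockdown and the fibrinogen calls between the knockdown groups held in each of the 16 other settings (adjusted p at most 0.0306). The FGG call in HIF-1α knockdown was lost after median centring (limma adjusted p = 0.0567), on removing the 3 raised-floor arrays (0.168), and on leaving out HIF-1α knockdown replicate 2, 3 or 4 or wild type replicate 1 (0.0631 to 0.0836). The FGB call in HIF-2α knockdown against wild type was lost after median centring (0.0603), without the 3 arrays (0.208) and without wild type replicate 2 or 4 (0.0585 and 0.0527). The FGG call there was lost after median centring (0.106), in the fit on the 2 groups alone (0.121), without the 3 arrays (0.271), and without HIF-2α knockdown replicate 1, 2 or 4 or wild type replicate 1, 2 or 4 (0.0586 to 0.130). HPX had an adjusted p of 0.0368 between the knockdown groups and 0.0602 in the fit on these alone. ALB, which encodes albumin and was the gene with the 10th highest mean, had a difference of -0.74 in HIF-1α knockdown (limma adjusted p = 0.0822) and of -0.18 after quantile normalization. Its HIF-1α knockdown and wild type arrays did not overlap in either setting. The fit on these groups alone gave a limma adjusted p of 0.00612. TF differed there by -0.77 (limma adjusted p = 0.0503), and by -0.24 after quantile normalization (adjusted p = 0.0139), where it passed. After quantile normalization 4 of the 24 fell and 0 rose in HIF-1α knockdown against wild type. ALB was then higher in HIF-2α than in HIF-1α knockdown (0.22, adjusted p = 0.0257).

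For the likeness of pattern, genes were ranked by Pearson r over the 12 arrays for the members with a range of at least 1. APOM was closest to TM2D3, STEEP1 and TMED9 (r = 0.93 for each), and MTTP to PABIR1 (0.98), PPT1 (0.98) and UTP4 (0.97). The mean of the 10 members was closest to KRT18 (0.96), COX6B1, PSMB7, RPLP1 and OTUB1 (0.94 to 0.95).

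Of 95 listed genes in 5 groups around lipoproteins, 77 were measured by a probe set with 1 symbol and the other 18 were not analysed here. In HIF-1α knockdown against wild type limma called 0 of the 77, beside 0.962% of all genes. At an unadjusted p below 0.05, 9 were higher and 5 lower, 11.7% and 6.49% of the 77 beside 10.3% and 2.98% of all genes. In HIF-2α knockdown against wild type 1 of the 77 was called, beside 0.788% of all genes. It was APOL2, an intracellular lipid-binding protein of the apolipoprotein L family, which fell. At an unadjusted p below 0.05, 11 were higher and 11 lower, 14.3% each beside 8.16% and 3.85% of all genes. In HIF-2α against HIF-1α knockdown 1 was higher and 2 were lower, beside 2.77% of all genes called in either direction. At an unadjusted p below 0.05, 7 were higher and 18 lower, 9.09% and 23.4% beside 5.19% and 8.39% of all genes. The median differences of the 77 were 0.02, -0.02 and -0.04 in these comparisons. After quantile normalization 7 of the 77 were called in HIF-2α knockdown against wild type, beside 2.20% of all genes. All 7 were lower: ABCG5, APOL1, APOL2, FOXO1, PLTP, PPARGC1A and SOAT2 (adjusted p between 0.0284 and 0.0457). Of all genes called there, 141 were higher and 263 lower. In HIF-2α against HIF-1α knockdown 3 were then higher (DGAT1, PLA2G12B and VLDLR) and 4 lower (CETP, HSPA5, PLTP and SOAT2). Of all genes 4.83% were called there, 342 higher and 546 lower. HSPA5 had a difference of -0.26 there against 0.05 in the deposited values.

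PLTP encodes the phospholipid transfer protein, which moves phospholipid between lipoproteins and remodels high density lipoprotein. It read 8.45, 8.48, 8.70 and 8.40 on HIF-2α knockdown arrays 1 to 4, 9.41, 9.13, 9.33 and 9.21 on HIF-1α knockdown arrays 1 to 4, and 8.76, 8.59, 8.91 and 9.25 on wild type arrays 1 to 4. The arrays of the knockdown groups did not overlap, and the wild type arrays overlapped with both. HIF-2α knockdown was lower than HIF-1α knockdown by 0.76 (log2 difference -0.76, SE 0.12, limma adjusted p = 0.00345), and the gene was called in this comparison in each of the 16 other settings (adjusted p at most 0.0181). Against wild type, HIF-2α knockdown differed by -0.37 (limma adjusted p = 0.185), and by -0.44 after quantile normalization (adjusted p = 0.0457), where it passed.

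SOAT2 encodes the enzyme that esterifies cholesterol in hepatocytes and enterocytes for packing into apolipoprotein B particles. It averaged 8.84 ± 0.16 in HIF-2α knockdown, 9.45 ± 0.17 in HIF-1α knockdown and 9.18 ± 0.20 in wild type. HIF-2α knockdown was lower than HIF-1α knockdown (log2 difference -0.61, SE 0.11, limma adjusted p = 0.0104), and without the 3 arrays with a raised floor the difference was -0.56 with an adjusted p of 0.0517. Against wild type, HIF-2α knockdown differed by -0.33 (limma adjusted p = 0.212), and by -0.40 after quantile normalization (adjusted p = 0.0443), where it passed. VLDLR, a receptor for triglyceride-rich particles, averaged 7.71 ± 0.12 in HIF-2α knockdown, 7.23 ± 0.07 in HIF-1α knockdown and 7.46 ± 0.11 in wild type, near the median gene level. HIF-2α knockdown was higher than HIF-1α knockdown (log2 difference 0.47, SE 0.07, limma adjusted p = 0.00327; at most 0.0181 over the other settings). APOL2 averaged 7.47 ± 0.11 in HIF-2α knockdown and 7.76 ± 0.08 in wild type (log2 difference -0.29, SE 0.06, limma adjusted p = 0.0437). That call was lost on leaving out HIF-2α knockdown replicate 1, 3 or 4 (adjusted p = 0.121, 0.0599 and 0.0920) or wild type replicate 1, 2 or 4 (adjusted p = 0.0959, 0.0946 and 0.0845), with differences between -0.31 and -0.25. It was also lost after median centring of the arrays (adjusted p = 0.112), in the fit on the 2 groups alone (0.173) and without the 3 arrays with a raised floor (0.281).

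By group, the 15 measured apolipoproteins and plasma lipid carriers other than the members included APOL2 and PLTP as called genes. Of the 20 genes of assembly and secretion only SOAT2 was called, and DGAT2, which makes triglyceride, had a difference of 0.33 in HIF-2α knockdown against wild type (limma adjusted p = 0.215). None of 11 lipases and lipase inhibitors was called, among them ANGPTL4, an inhibitor of lipoprotein lipase, with differences of 0.11 in HIF-1α knockdown and -0.03 in HIF-2α knockdown against wild type. Of the 11 receptors and cholesterol transporters VLDLR was called, and SCARB1, the high density lipoprotein receptor, had a difference of -0.21 in HIF-2α knockdown against wild type (limma adjusted p = 0.335). None of 20 liver transcription factors was called in the deposited values. Among these, PPARGC1A, a coactivator of hepatic metabolism genes, had a difference of -0.30 in HIF-2α knockdown against wild type (limma adjusted p = 0.251), and of -0.37 after quantile normalization (adjusted p = 0.0417), where it passed.

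**Figure D4:**
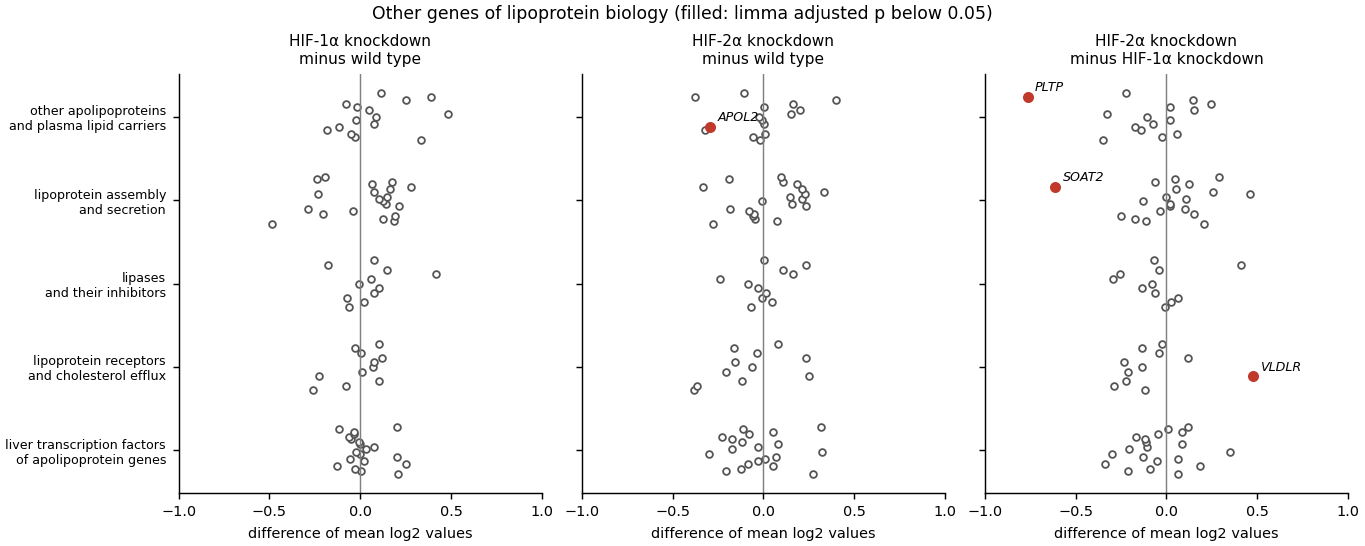
Difference of mean log2 values of 77 other genes of lipoprotein biology in the 3 comparisons, by list; each point is a gene and filled red points have a limma adjusted p below 0.05. Only APOL2 (-0.29) is filled in HIF-2α knockdown against wild type, and PLTP (-0.76), SOAT2 (-0.61) and VLDLR (0.47) in HIF-2α against HIF-1α knockdown.

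Promoters are shown for MTTP and for APOH and APOA2, which are among the brightest genes, because HIF proteins bind DNA at short core motifs, of which ACGTG was searched and so was the variant GCGTG. RefSeq promoter entries of build GRCh38.p14 matched 7 of the 10 members, 11 starts in all (not APOA1, APOB and APOC3), and each sequence below holds the 250 bases before a start, read 5′ to 3′ on the strand of the gene. Capitals mark any match, on either strand, to either of these HIF cores, to AGGTCA, which is a half-site of nuclear receptors, to GTTAAT, which is a half-site of the liver factor HNF1, or to the TATA box letters TATAAA. APOA2 is on the reverse strand at chr1:161223629-161223878, APOH on the reverse strand at chr17:66229416-66229665, and the MTTP starts are on the forward strand, preceded by chr4:99563880-99564129 and chr4:99574574-99574823.
APOA2: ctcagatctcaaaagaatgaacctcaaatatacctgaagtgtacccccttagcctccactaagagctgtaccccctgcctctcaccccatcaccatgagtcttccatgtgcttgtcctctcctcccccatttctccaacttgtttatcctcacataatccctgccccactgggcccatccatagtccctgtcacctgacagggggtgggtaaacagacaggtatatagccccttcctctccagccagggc
APOH: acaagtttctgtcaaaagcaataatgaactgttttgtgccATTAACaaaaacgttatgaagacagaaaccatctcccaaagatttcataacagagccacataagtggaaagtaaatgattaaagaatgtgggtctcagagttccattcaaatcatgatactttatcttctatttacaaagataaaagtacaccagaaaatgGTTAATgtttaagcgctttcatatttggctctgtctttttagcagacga
MTTP, upstream start: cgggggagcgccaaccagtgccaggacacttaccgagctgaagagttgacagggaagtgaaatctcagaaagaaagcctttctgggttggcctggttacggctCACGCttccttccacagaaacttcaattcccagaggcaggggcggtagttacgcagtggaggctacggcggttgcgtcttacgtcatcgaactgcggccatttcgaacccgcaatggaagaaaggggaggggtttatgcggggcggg
MTTP, downstream start: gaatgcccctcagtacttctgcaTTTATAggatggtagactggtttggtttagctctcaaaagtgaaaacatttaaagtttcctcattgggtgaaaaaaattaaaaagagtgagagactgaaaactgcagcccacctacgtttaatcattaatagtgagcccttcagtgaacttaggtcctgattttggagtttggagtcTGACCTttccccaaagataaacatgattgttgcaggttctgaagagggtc

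The APOA2 stretch held none of the 5 motifs. The APOH stretch held the HNF1 half-site at 2 places, a motif found in 6.23% of the 35116 promoters of the table. Of the MTTP stretches, the upstream one held GCGTG on the opposite strand, 147 bases before the start. The downstream one held the nuclear receptor half-site (in 12.1% of all promoters) and TATAAA (in 10.7%), both on the opposite strand. Over all 11 member promoters, 4 held a HIF core, from APOA4, APOA5 and MTTP, beside 43.2% of all promoters, with ACGTG in 18.5% and GCGTG in 32.2% of them. A match is a description of these letters and not of binding.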

How the data were processed

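The authors deposited 1 table of log2 values for 32321 probe sets on 12 arrays, and per the labels the RNA was amplified, labelled with biotin and hybridised to Affymetrix arrays. The log base was inferred from the range of the values, 5.93 to 15.1, and the sources used here do not give the background correction or normalization. Gene symbols came from the annotation of the array platform and were brought up to date by Entrez identifier with RefSeq names (GRCh38.p14): 19158 probe sets had 1 symbol, 1388 several and 11775 none. Only those with 1 symbol were used, and the brightest stood for each of 18404 genes.

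limma 3.58.1 in R 4.3.3 fitted 1 mean per group over all 12 arrays, with eBayes and Benjamini-Hochberg adjustment over all genes. A gene was called at an adjusted p below 0.05, with no filter on level. SE is the moderated standard error. The script was tested on simulated data. The number of arrays limits the precision, and p-values rest on the spread among them. Other settings were quantile normalization, median centring, fits on 2 groups, another variance model, a replicate block, the mean of all probe sets of a gene, a level filter and leaving out arrays. The text names HIF1A, EPAS1, the members, called genes of fixed lists, defining genes of a described list, and the genes of most similar pattern. The members and lists were chosen with earlier results of these data known.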

Additional observations from a re-analysis of the deposited data

Results flagged for a closer look

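In 5 of 33 sets of 4 arrays, the gap of the highest or lowest array to its neighbour took up more of the range than Dixon's 95% critical value for 4 arrays allows, and chance does this in about 1 of 20 sets. The sets reuse the same 12 arrays and hold genes that move together. They are therefore not independent, and the count is not a test of an excess. For APOA1 in HIF-2α knockdown, replicate 1 (11.11) was the lowest array, with a gap of 0.901 of the range. For APOA2 in HIF-1α knockdown, replicate 3 (13.59) was the highest, with a gap of 0.984. For APOA5, replicate 3 was the highest in HIF-2α knockdown (8.21), with a gap of 0.883, and replicate 4 in wild type (8.17), with a gap of 0.831. For APOM in HIF-1α knockdown, replicate 3 (11.63) was the highest, with a gap of 0.884.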

How the results depend on the processing

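Of 477 recomputed member differences, 446 kept their sign and their side of the threshold, 1 passed it and 30 changed sign. The 1 that passed was APOB in the fit on HIF-1α knockdown and wild type alone, which made the count of members called 1 there, and the count was 0 in every other setting run for the 3 comparisons. After quantile normalization APOA2 was 0.14 and APOB 0.059 in HIF-1α knockdown against wild type, APOC3 was -0.0097 in HIF-2α knockdown against wild type, and APOA2 was -0.14 and APOB -0.088 in HIF-2α against HIF-1α knockdown. In HIF-2α knockdown against wild type, APOA1 was 0.060 as the mean of its probe sets, and without the 3 arrays with a raised floor APOC3 was -0.13 and APOH -0.10. Leaving out 1 array at a time gave ranges that cross 0 in HIF-1α knockdown against wild type for APOA4 (-0.048 to 0.012), APOC3 (-0.12 to 0.090) and APOM (-0.36 to 0.057). In HIF-2α knockdown against wild type they did so for APOA1 (-0.15 to 0.16), APOA5 (-0.081 to 0.027), APOC3 (-0.036 to 0.19), APOE (-0.11 to 0.11) and APOH (-0.11 to 0.14), and in HIF-2α against HIF-1α knockdown for APOC3 (-0.033 to 0.21). EPAS1 in HIF-1α knockdown against wild type, a difference of -0.03, ran from -0.086 to 0.055. The cause was not tested for any of these. For pairing, the deviation of each array from its group mean was correlated over all genes between same-numbered arrays. These deviations correlated at -0.04 to 0.64 in HIF-1α knockdown against wild type, -0.17 to -0.03 in HIF-2α knockdown against wild type and 0.03 to 0.22 in HIF-2α against HIF-1α knockdown. In none of the 3 did every same-numbered pair exceed 0.1, so the arrays were not treated as paired, although this does not show that they were unpaired. Of the 4 arrays of the first-named group, 2, 0 and 0 correlated best with their own number in the other group. In the reverse direction 2, 0 and 1 of 4 did. With the replicate number as a block 0 members were called, the lowest adjusted p of a member was 0.196, 0.0995 and 0.225, and 234, 202 and 562 genes were called in all. Over all genes the calls in HIF-1α knockdown against wild type were 150 higher and 27 lower, against 140 and 114 after quantile normalization, 67 and 18 after median centring and 315 and 81 in the fit on 2 groups. In HIF-2α knockdown against wild type they were 88 and 57, against 141 and 263, 34 and 38, and 28 and 36 in those settings. In HIF-2α against HIF-1α knockdown they were 178 and 331, against 342 and 546, 133 and 204, and 184 and 343. Leaving out 1 array at a time gave 50 to 483, 61 to 219 and 211 to 618 calls. Without the 3 arrays with a raised floor 22, 37 and 259 genes were called, and with the other variance model 288, 285 and 580. The 77 other lipoprotein genes gave 0, 7 and 7 calls after quantile normalization, against 0, 1 and 3. The shares of all genes called were 1.38%, 2.20% and 4.83% after that step, against 0.962%, 0.788% and 2.77%. APOA4 fell below the level filter and has no value there.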
